A study of Homo sapiens with 9 samples.

Results

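The PP7080, SLC9A3 and EXOC3 rows are 3 of the 26008 gene rows in a count table from HCT8, an established human colorectal adenocarcinoma cell line from the ileocecal region. They were taken by name. PP7080 and SLC9A3 had been chosen by their higher counts with Vibrio cholerae vesicles than in controls, so that comparison is given here as a description with no test. EXOC3 was added because both had been annotated opposite it. The question asked of them is whether the PP7080 and SLC9A3 rows rose in proportion.

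Cells received, for 5 h, membrane vesicles of V. cholerae C6706 or of Escherichia coli MC1061, or 20 mM Tris-HCl as the control, which the sample labels call untreated. Vesicles are small membrane particles shed by bacteria. No allele or transgene is named for the cells, and each group had 3 libraries of polyadenylated RNA. Nothing in the labels says whether replicates were separate cultures, and the spread that p-values measure here may be technical. In bulk RNA, fewer cells of a kind and less RNA per cell cannot be told apart.

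SLC9A3 encodes NHE3, the sodium-proton exchanger of the intestinal brush border, which takes up sodium from the gut lumen in exchange for protons and is inhibited in many secretory diarrhoeas. EXOC3, also known as SEC6, encodes a subunit of the exocyst, the complex that tethers secretory vesicles to the plasma membrane before fusion. PP7080 is a long non-coding RNA, listed by RefSeq under the symbol SLC9A3-OT1, an overlapping transcript of SLC9A3.

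All 3 genes lie side by side on chromosome 5. The counts were made on hg19 and the annotation used here is GENCODE 29 on GRCh38, so gene positions are given as lengths and distances only. EXOC3 runs on the plus strand, and PP7080 and SLC9A3 run towards it on the minus strand. PP7080 and SLC9A3 share sequence on the same strand: 2363 of the 2766 nt of PP7080 exons (85.4%) fall inside SLC9A3 exons, in 1 of the 4 SLC9A3 transcript models. The overlap of each row with EXOC3 is one and the same stretch of 839 nt, which reaches the 3′ end of EXOC3's longest models. Only 3 of 10 EXOC3 models reach it, 2 of them marked as targets of nonsense-mediated decay and 1 a processed transcript. None of the 3 coding models does (0 of 3), and the longest of them ends 3161 nt before SLC9A3. GENCODE also gives PP7080 an exon inside the last intron of the coding EXOC3 models. In RefSeq the EXOC3 gene ends 3165 nt before SLC9A3 and 3219 nt before PP7080, and the whole 2456 nt span of PP7080 lies inside SLC9A3. Whether either row is opposite EXOC3 thus depends on the annotation, and the sources used here do not give the one used for counting.

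SLC9A3 also has another gene opposite it. Exons of SLC9A3-AS1, a non-coding RNA on the plus strand, overlap 830 nt of SLC9A3 exons and 0 nt of PP7080 exons. RefSeq places its start 270 nt beyond the start of PP7080, pointing away from it. The SLC9A3-AS1 gene was not analysed here.

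**Figure D1:**
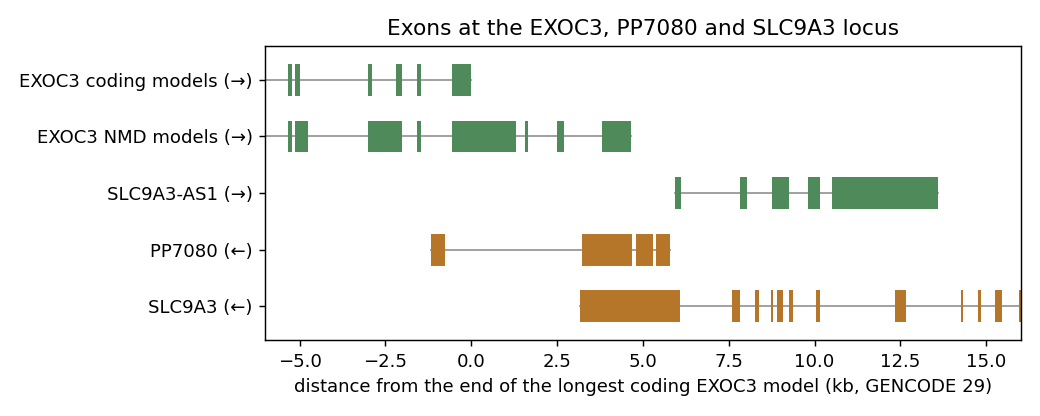
Exons of EXOC3, SLC9A3-AS1, PP7080 and SLC9A3 in GENCODE 29, along the direction of EXOC3, in kb from the end of its longest coding model. Green boxes are exons read to the right and brown boxes exons read to the left, SLC9A3 and EXOC3 go on beyond the edges, and the PP7080 exons fall mostly (85.4%) in SLC9A3 exons, while only non-coding EXOC3 models share exon sequence with them.

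The 250 bases before each transcription start are shown because PP7080 has a start of its own within the last exon of the longest SLC9A3 model, far from the SLC9A3 start. They come from the RefSeq promoter table on GRCh38.p14, which held all 3 genes, and are printed 5′ to 3′ on the gene's strand. They lie at chr5:442926-443175 (plus strand) for EXOC3, at chr5:524450-524699 (minus strand) for SLC9A3 and at chr5:472966-473215 (minus strand) for PP7080. Capitals mark GGGCGG on either strand, the GC box to which Sp1 and KLF factors bind.
EXOC3: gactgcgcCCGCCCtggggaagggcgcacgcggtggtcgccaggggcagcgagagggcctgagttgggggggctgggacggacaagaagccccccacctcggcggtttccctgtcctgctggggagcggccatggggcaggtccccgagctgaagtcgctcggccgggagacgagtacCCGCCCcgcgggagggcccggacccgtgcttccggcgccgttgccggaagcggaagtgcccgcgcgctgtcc
SLC9A3: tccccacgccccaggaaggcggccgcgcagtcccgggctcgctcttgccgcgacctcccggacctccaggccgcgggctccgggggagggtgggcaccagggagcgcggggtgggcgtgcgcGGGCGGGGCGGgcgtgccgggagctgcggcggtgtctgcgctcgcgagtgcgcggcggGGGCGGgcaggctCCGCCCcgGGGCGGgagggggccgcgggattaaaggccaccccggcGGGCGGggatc
PP7080: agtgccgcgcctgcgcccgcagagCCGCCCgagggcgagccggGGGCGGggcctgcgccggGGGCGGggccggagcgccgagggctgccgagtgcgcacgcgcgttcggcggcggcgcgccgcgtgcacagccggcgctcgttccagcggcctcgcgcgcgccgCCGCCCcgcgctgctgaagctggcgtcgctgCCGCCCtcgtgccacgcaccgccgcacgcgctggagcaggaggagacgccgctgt

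The GC box occurred 2 times in the EXOC3 window, 6 times in that of SLC9A3 and 5 times in that of PP7080, and 42.6% of the 35116 windows of this length in the table held at least 1. The PP7080 window held 50 CpG dinucleotides, the SLC9A3 window 38 and the EXOC3 window 29, against a median of 11 over all windows. Their GC content was 82.4%, 82.0% and 75.2%, against a median of 58.0%. Searched on both strands, 6 other motifs had 0 matches in these windows. They were the AP-1 site TGANTCA (in 6.57% of all windows), the cAMP response element TGACGTCA (1.65%), the E-box CACGTG (6.34%), the TATA box TATAAA (10.7%), an NF-kB core GGGANTTCC (1.59%) and an antioxidant response core TGACNNNGC (10.9%). A match is a description of the sequence and not a binding site, and the lack of one says only that those letters are not in the window.

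Total counts ran from 363557 to 733412 per library, and 3 counts were worth 3.88 to 9.07 CPM (counts scaled by edgeR to the size of the library, over the 3679 rows tested). Replicate 3 of every group stood apart from replicates 1 and 2, so a fit that blocks on the replicate number is quoted where it changes a call. How strand was handled in counting is not known here, so reads from a gene and from one opposite it cannot be told apart, and each row is called by its name in the table. The 16 rows named for colon epithelial markers summed to 7678 to 11482 counts per library, nearly all of them in KRT8, at 7550 to 11346. KRT18 held 56 to 96, MUC2 2 to 50 and EPCAM 5 to 17. These 4 were the deepest rows of the list and the only ones tested, and 1 of the 16 was at 0 in every library. KRT8, whose row lies opposite KRT18, fell with V. cholerae vesicles in the fit with the block (log2 -0.50 ± 0.08 (SE), edgeR adjusted p = 0.00430), but did not pass by group alone (-0.49 ± 0.29, adjusted p = 0.999). Over all rows tested these fits called 0.353% and 0.0544% in either direction. MUC2 had 1.42 ± 0.56 with V. cholerae and 1.25 ± 0.58 with E. coli vesicles by group alone and was not called with the block (edgeR adjusted p = 0.185 and 0.102), nor were KRT18 and EPCAM. The 9 rows named for fibroblast markers, VIM and COL1A1 among them, summed to 0 in controls, to at most 1.36 on a CPM scale of the library total with V. cholerae and at most 2.47 with E. coli vesicles, and 7 of them were at 0 throughout. The 10 rows named for immune cell markers summed to 102 to 157 on that scale in controls, 82.0 to 145 with V. cholerae and 118 to 188 with E. coli vesicles. Of these, 5 were at 0 in every library, and CD68, at 16 to 74 counts, and CD14, at 5 to 15, were tested and not called in any comparison. By comparison and fit, 0% to 2.28% of all rows were called, so 0 of 2 is near that share.

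The EXOC3 row was nearly empty. It held 4, 1 and 4 counts in control replicates 1 to 3, 3, 1 and 6 with V. cholerae vesicles and 1, 1 and 7 with E. coli vesicles, a total of 28 over the 9 libraries. The row was removed by the filter on low counts and has no test, and its groups overlapped. With so few counts a change in the EXOC3 row was not detectable. Since strand handling is not known, the row may not hold all reads of the EXOC3 gene.

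The SLC9A3 row was the deepest of the 3, with 6213 counts in all and rank 107 of the 26008 rows. It held 320, 340 and 688 counts in control replicates 1 to 3, 563, 523 and 2018 with V. cholerae vesicles, and 405, 436 and 920 with E. coli vesicles. In CPM these were 967, 932 and 1370 in controls, 1639, 1525 and 2609 with V. cholerae vesicles and 1170, 1258 and 2041 with E. coli vesicles. Replicate 3 was the highest of its group in each case. Every V. cholerae library exceeded every control, whereas E. coli replicates 1 and 2 lay below control replicate 3. The row was chosen on the V. cholerae comparison and the share of all rows separating so is not given, so nothing is read from this.

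The PP7080 row held 1265 counts in all, rank 519. Its counts were 42, 59 and 98 in control replicates 1 to 3, 110, 121 and 418 with V. cholerae vesicles, and 116, 135 and 166 with E. coli vesicles. In CPM it stood at 127, 162 and 195 in controls, 320.2, 353 and 540.4 with V. cholerae vesicles and 335, 389.5 and 368 with E. coli vesicles. All 6 vesicle libraries lay above all 3 controls, and the vesicle groups overlapped. The V. cholerae part follows from how the row was chosen. The share of all rows that separate in this way is not given here, so nothing is read from it.

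Rows can be compared with one another only per length. On CPM per kb of GENCODE exon, controls had 58.3 ± 12.3 for PP7080, 193 ± 43.2 for SLC9A3 and 0.929 ± 0.573 for EXOC3 (SD, n = 3). With V. cholerae vesicles they were 146 ± 43.0, 341 ± 106 and 0.791 ± 0.381, and with E. coli vesicles 132 ± 9.91, 264 ± 85.1 and 0.868 ± 0.892. The SLC9A3 row stood highest and the EXOC3 row lowest in every library. These are levels of rows, and with strand handling unknown they may not be those of the genes named. The exon lengths come from GRCh38 models that may not be those counted. Reads shared by PP7080 and SLC9A3 could have been left out, while the lengths include the shared bases.

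**Figure D2:**
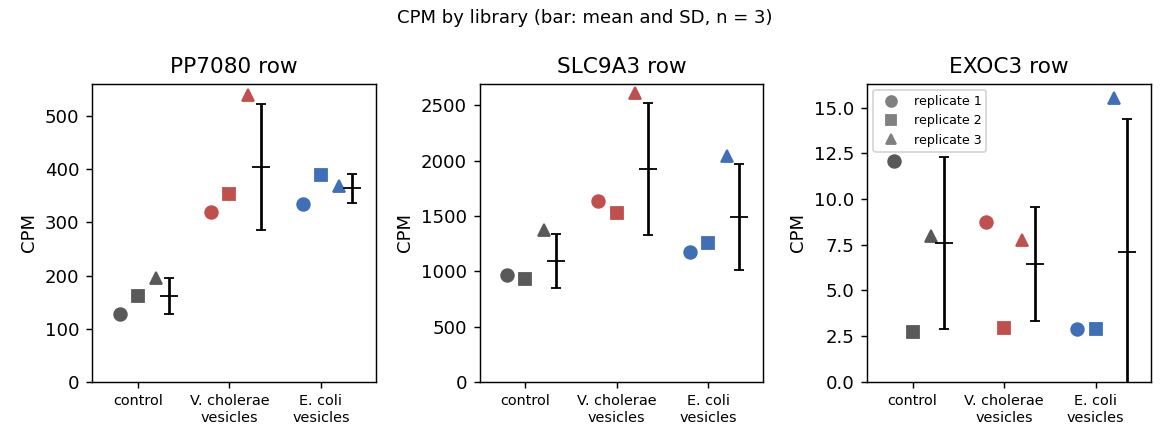
CPM of the PP7080, SLC9A3 and EXOC3 rows in each of the 9 libraries, by group, with circles for replicate 1, squares for replicate 2 and triangles for replicate 3; the black bar gives the mean and SD of 3 libraries and is cut at 0 for EXOC3. PP7080 lay between 127 and 195 CPM in controls and between 320.2 and 540.4 with either vesicle, while SLC9A3 with E. coli vesicles overlapped the controls.

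With V. cholerae vesicles, the comparison by which the rows were chosen, PP7080 went from 161 ± 34.1 to 404 ± 119 CPM and SLC9A3 from 1090 ± 243 to 1924 ± 596 CPM (SD, n = 3). The log2 fold changes were 1.33 ± 0.27 for PP7080 and 0.82 ± 0.28 for SLC9A3 (SE), which is 2.51-fold and 1.77-fold. In replicates 1, 2 and 3 the log2 ratios to the control were 1.33, 1.12 and 1.47 for PP7080 and 0.76, 0.71 and 0.93 for SLC9A3. The PP7080 ratio was the larger in 3 of 3 pairs. Of the 3679 rows tested, 13 had a larger log2 fold change than PP7080 and 79 a larger one than SLC9A3. Both rows were among those called with the replicate block, 0.353% of all rows tested, and nothing is read from that since it chose them. Without the block neither was among the called rows, 0.0544% of those tested in either direction and 0.0272% as higher.

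E. coli vesicles were not used to choose the rows, but this comparison shares its 3 controls with the one that was. That choice favours rows with low controls, so it leans towards higher values here too. For PP7080 the mean was 364 ± 27.4 CPM against 161 ± 34.1 in controls (SD, n = 3). That is 2.24-fold, or 1.17 ± 0.27 in log2 (SE). It did not pass edgeR's quasi-likelihood test by group alone (Benjamini-Hochberg adjusted p = 0.139 over all 3679 rows), where 0.19% of rows were called. With the replicate block PP7080 was called as higher, by 1.19 ± 0.19 (edgeR adjusted p = 0.00286), where 2.28% of all rows were called and 1.47% were called as higher. DESeq2 gave an adjusted p of 0.0116, and over all alternatives it ran from 3.73e-07 to 0.524 for PP7080. The lowest came from edgeR with the block and without E. coli replicate 3, where 817 rows were called. The within-number log2 ratios of PP7080 were 1.40, 1.27 and 0.92, so the row was higher in 3 of 3 pairs. The blocked call ended without E. coli replicate 1 (adjusted p = 0.0670), control replicate 1 (0.0982) or control replicate 2 (0.0557).

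SLC9A3 with E. coli vesicles stood at 1490 ± 479 CPM (SD, n = 3) against the 1090 ± 243 of the controls. The log2 difference was 0.45 ± 0.28 (SE). It did not pass the test without the block (edgeR adjusted p = 0.586) or with it (0.43 ± 0.11, adjusted p = 0.0636). The pairs gave 0.27, 0.43 and 0.58, higher in 3 of 3. Without E. coli replicate 3 the value by group alone was 0.15 (edgeR adjusted p = 0.800) and the blocked value 0.39 (adjusted p = 0.00943), and in replicates 1 and 2 only it was 0.36 with 0.0161, against 0.983 at the other end of the alternatives. The blocked fit without E. coli replicate 3 called 817 rows in this comparison, and replicates 1 and 2 only called 793. Among all 3679 rows, 547 had a larger log2 fold change than SLC9A3 and 35 a larger one than PP7080.

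The direct comparison of the vesicles uses the V. cholerae libraries in which the rows were chosen as high, so it is not independent of that choice, which leans towards higher values with V. cholerae. The V. cholerae and E. coli libraries differed by log2 0.16 ± 0.26 for PP7080 (edgeR adjusted p = 0.942) and 0.37 ± 0.28 for SLC9A3 (adjusted p = 0.760), higher with V. cholerae. With the block the values were 0.13 ± 0.17 (adjusted p = 0.751) and 0.37 ± 0.11 (adjusted p = 0.118), where 0.0544% of rows were called. For PP7080 only replicate 3 of the 3 pairs was higher with V. cholerae vesicles (-0.07, -0.14 and 0.55), and for SLC9A3 all 3 pairs were (0.49, 0.28 and 0.35). The SLC9A3 difference passed in replicates 1 and 2 only (0.38, edgeR adjusted p = 0.00857) and with the block without E. coli replicate 3 (0.42, adjusted p = 0.00484). Those settings called 766 and 747 rows in this comparison, so a pass there sets SLC9A3 little apart from other rows. By group alone, leaving out V. cholerae replicate 3 took the SLC9A3 difference to 0.088 (edgeR adjusted p = 0.940) and that of PP7080 to -0.11, and leaving out E. coli replicate 3 took the SLC9A3 difference to 0.67 (adjusted p = 0.146). A difference between the vesicles was not called for either row over all libraries. By group alone edgeR called 0 of the 3679 rows (0%), with 333 (9.05%) at an unadjusted p under 0.05, and DESeq2 called 5.

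The ratio of the rows within a library bears on proportion without any scaling, since library size cancels. It compares rows, and may not compare the 2 transcripts. Of the 2766 nt of PP7080 exons, 2363 lie in SLC9A3 exons, and how reads there were counted is not known. In GENCODE the only PP7080 exon outside SLC9A3 exons is the one in the last intron of the coding EXOC3 models. PP7080 held 13.1, 17.4 and 14.2 counts per 100 SLC9A3 counts in control replicates 1 to 3. With V. cholerae vesicles it held 19.5, 23.1 and 20.7 per 100, and with E. coli vesicles 28.6, 31.0 and 18.0. All 6 vesicle libraries were above all 3 controls, by a narrow margin for E. coli replicate 3. The group means were 14.9 ± 2.19, 21.1 ± 1.83 and 25.9 ± 6.89 per 100 (SD, n = 3).

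As a share of the counts of both rows, PP7080 took 14.8% in control replicate 2 (95% Wilson interval 11.6 to 18.6) and 16.3% in V. cholerae replicate 1 (13.7 to 19.3), so these single libraries were not distinguishable at their depth. In the deepest library, V. cholerae replicate 3, the share was 17.2% (15.7 to 18.7), and in its same-numbered control 12.5% (10.3 to 15.0). The intervals cover counting error only.

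**Figure D3:**
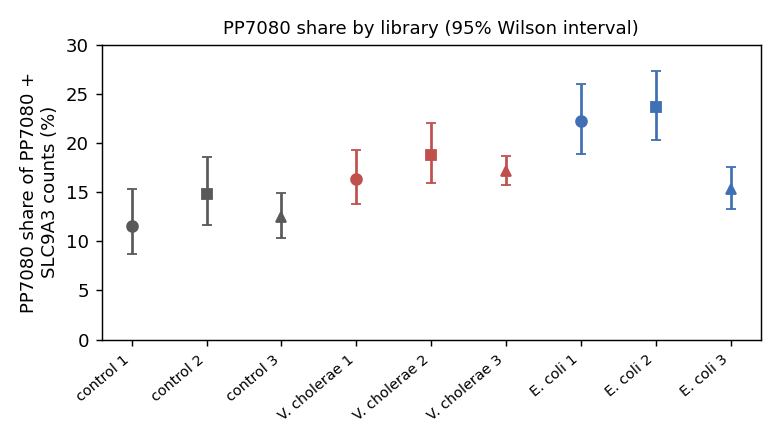
Share of PP7080 in the summed counts of the PP7080 and SLC9A3 rows in each library, in percent, with 95% Wilson intervals for counting error. The controls sit at 11.6% to 14.8%, the V. cholerae libraries at 16.3% to 18.8%, and E. coli replicates 1 and 2 at 22.3% and 23.6% with replicate 3 at 15.3%.

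With E. coli vesicles the log2 ratio of PP7080 to SLC9A3 was higher than in controls by 0.76, or 1.69-fold. A two-sided exact permutation test gave p = 0.1, the smallest that 3 libraries against 3 allow (adjusted p = 0.2 over the 2 ratio comparisons tested). The pairs gave 1.12, 0.83 and 0.34, higher in 3 of 3. For V. cholerae vesicles the difference was 0.50, or 1.42-fold, with pairs of 0.56, 0.41 and 0.54, given with no test. Between the vesicles it was -0.26, lower with V. cholerae, with an exact permutation p of 0.4 and 1 of 3 pairs higher. The PP7080 row thus gained more than the SLC9A3 row in every vesicle library relative to its same-numbered control. The exact permutation test could not pass at this number of libraries. Whether the 2 transcripts differ in this way cannot be told from rows that share sequence.

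**Figure D4:**
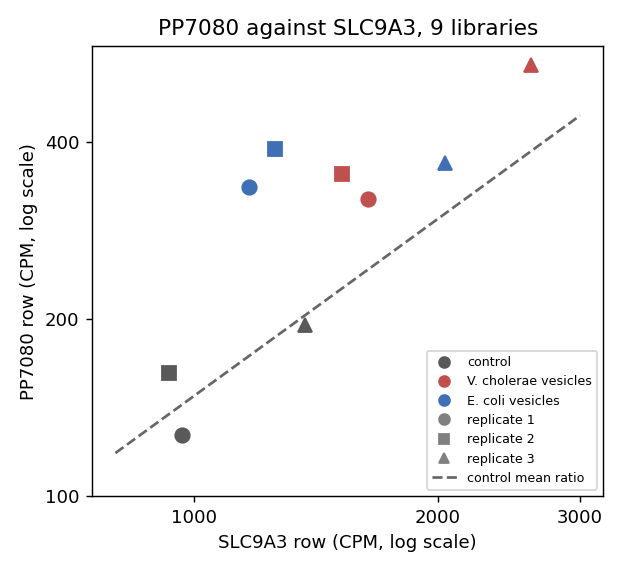
CPM of the PP7080 row against CPM of the SLC9A3 row in the 9 libraries, both on log axes, with the dashed line drawn at the mean control log ratio. Vesicle libraries lie above the line, E. coli replicates 1 and 2 the farthest, at 28.6 and 31.0 PP7080 counts per 100 SLC9A3 counts.

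The balance of counts between rows near to and far from the 3′ end of an opposite gene moved with part of this. Rows were split by their distance from the 3′ end of the coding gene opposite them. The split compares different rows. It gives position along a transcript only if their reads came from the opposite gene, which is not known here. The far rows (3000 nt or more) held 12.2% and 11.1% as many counts as the near rows (below 500 nt) in E. coli replicates 1 and 2, against 15.8% to 16.6% in the other 7 libraries. These are the libraries with the highest PP7080 to SLC9A3 ratios. In the E. coli comparison the median log2 fold change was 0.15 over the 854 near rows tested and -0.34 over the 356 far rows, and in the V. cholerae comparison 0.02 and -0.02. Both PP7080 and SLC9A3 count as 0 nt from the end of EXOC3 by their shared stretch, and PP7080 overlaps SLC9A3 to within 52 nt of the 3′ end of SLC9A3. The 3 V. cholerae libraries, at 15.8% to 16.3%, had ratios above those of the controls, at 16.2% to 16.6%. Whether this split of rows bears on the E. coli ratio was not tested.

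**Figure D5:**
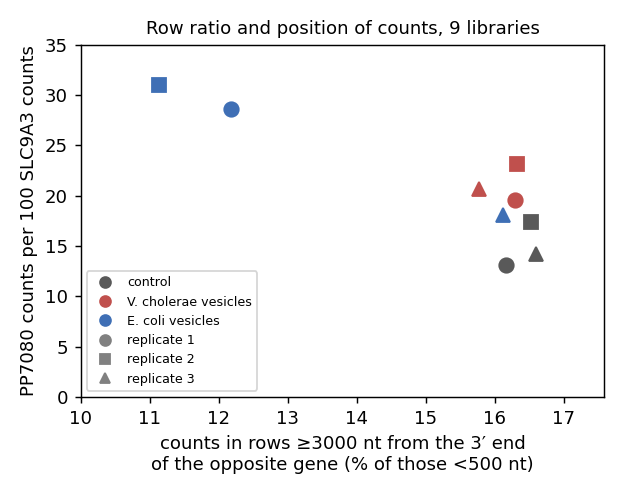
PP7080 counts per 100 SLC9A3 counts against counts in far rows (3000 nt or more from the opposite gene's 3′ end) as a percentage of counts in near rows (below 500 nt), for the 9 libraries. E. coli replicates 1 and 2 stand apart at 12.2% and 11.1% with ratios of 28.6 and 31.0, and among the other 7 libraries, at 15.8% to 16.6%, the V. cholerae points lie above the control points.

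Other pairs of rows opposite one coding gene give a scale for this gap. Over 89 such pairs of tested rows the log2 fold changes differed by a median of 0.20 in the V. cholerae comparison (quartiles 0.09 and 0.49) and 0.50 in the E. coli comparison (0.24 and 0.76). PP7080 exceeded SLC9A3 by 0.51 and 0.72. In the V. cholerae comparison 20 of the 89 pairs differed by more, and in the E. coli comparison 24 did. The pairs were not matched for depth, and counting noise widens the gap between shallow rows. They share libraries and some share a gene, so this is a description.

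The rest of the exocyst was measured thinly. Of 12 rows named for exocyst subunits and paralogs, only those of EXOC3L1 and EXOC3L2, paralogs of EXOC3, were deep enough to test. EXOC3L1 held 7 to 44 counts, with log2 fold changes of 0.11 ± 0.37 with V. cholerae and -0.60 ± 0.39 with E. coli vesicles (SE). EXOC3L2 held 9 to 35, with 0.67 ± 0.35 and 0.17 ± 0.37. Neither was called with or without the block, where 0% to 2.28% of all rows were called, by comparison and fit. Among the subunits themselves EXOC8 held 2 to 21 counts and EXOC5 0 to 6.

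One other exocyst subunit has a deep row opposite it. EXOC7 held 0 to 3 counts, and the row of ZACN, a zinc-activated ion channel gene that overlaps 2650 nt of EXOC7 exons down to its 3′ end, held 417 to 963. ZACN was chosen after its values were seen. It had more counts than EXOC7 in 9 of 9 libraries, as PP7080 and SLC9A3 had over EXOC3. Rows opposite other subunits did not follow this: AP5M1 exceeded EXOC5 in 0 of 9 libraries and SPRTN exceeded EXOC8 in 5 of 9. The log2 fold changes of ZACN were 0.12 ± 0.21 with V. cholerae and 0.13 ± 0.21 with E. coli vesicles (SE), and it was not called with the block (edgeR adjusted p = 0.858 and 0.569).

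Of 19 rows named for exocyst partners and secretory GTPases, 3 were tested and 0 called in any comparison. Over all rows tested 0% to 2.28% were called, by comparison and fit, so 0 of 3 is near that share. The median log2 fold change of the 3 was 0.24 with V. cholerae and 0.09 with E. coli vesicles against 0.01 and -0.01 over all rows. RHOQ, a small GTPase gene, was the deepest at 282 to 882 counts and lies opposite ATP6V1E2 and PIGF. It had log2 fold changes of -0.00 ± 0.22 with V. cholerae and 0.09 ± 0.22 with E. coli vesicles (SE). RAB3IP, the exchange factor for Rab8, held 19 to 38 counts with 0.34 ± 0.37 and -0.05 ± 0.38. RAB11FIP1, a Rab11 effector, held 10 to 31 with 0.24 ± 0.38 and 0.23 ± 0.38, and ARF6 was not tested.

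Among 13 rows named for sodium-proton exchangers, 4 were tested. Of the 3 besides SLC9A3, 0 were called in any comparison, with or without the block, where 0% to 2.28% of all rows were called. The row of SLC9B1, a distant relative of the NHE genes, at 95 to 359 counts, lies opposite CISD2 and had log2 fold changes of -0.00 ± 0.27 with V. cholerae and -0.61 ± 0.28 with E. coli vesicles (SE). SLC9A7, an exchanger of the Golgi, had 0.30 ± 0.38 and 0.33 ± 0.38, and SLC9A5, opposite FHOD1, 0.74 ± 0.43 and -0.11 ± 0.47. The median of the 4 was 0.11 with E. coli vesicles. With V. cholerae vesicles it was 0.52, which includes SLC9A3, chosen on that comparison.

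Of 16 rows named for NHE3 partners and regulators, 3 were tested and 0 called, against 0% to 2.28% of all rows. Their medians were -0.32 and 0.02. ADRM1, of a ubiquitin receptor of the proteasome, opposite LAMA5 and at 54 to 342 counts, had -0.38 ± 0.36 with V. cholerae and 0.31 ± 0.36 with E. coli vesicles (SE). EZR, whose product ezrin links brush border proteins to actin, had -0.32 ± 0.35 and -0.11 ± 0.35, and CHP1, a cofactor of exchangers, 0.17 ± 0.37 and 0.02 ± 0.38. PDZK1, a scaffold protein gene at 2 to 19 counts, was not tested.

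Of 19 rows named for enterocyte ion and fluid transport, 2 were tested and 0 called, against 0% to 2.28% of all rows. Their medians were -0.09 and -0.12. SLC4A2, an anion exchanger gene opposite CDK5, had -0.13 ± 0.25 with V. cholerae and -0.12 ± 0.25 with E. coli vesicles (SE), and ATP1B1, of the sodium pump and opposite NME7, -0.04 ± 0.31 and -0.13 ± 0.31. KCNE3, at 1 to 20 counts, was not tested, and 6 of the 19 rows had 0 counts in every library.

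Along this stretch of chromosome 5, 15 listed neighbours had rows, members included, and 4 were tested. Besides PP7080 and SLC9A3 these were TPPP, opposite CEP72, at 28 to 258 counts with 0.40 ± 0.42 with V. cholerae and 0.44 ± 0.42 with E. coli vesicles (SE), and BRD9, opposite TRIP13, with 0.31 ± 0.36 and -0.56 ± 0.39. Neither TPPP nor BRD9 was called, where 0% to 2.28% of all rows were. C5orf55, the older name of EXOC3-AS1, which starts next to EXOC3 on the other strand and overlaps 3 nt of its exons, held 0 to 26 counts and was not tested.

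The rows whose log2 CPM followed PP7080 most closely over the 9 libraries were SCAMP1 (Pearson r = 0.93), PXMP4 (0.93), ANKRD13C (0.93), NLRC4 (0.93) and NMT1 (0.90). SLC9A3 came 42nd among them, at 0.80. SCAMP1, of a secretory carrier membrane protein, had means of 49.8 CPM in controls, 81.3 with V. cholerae and 74.0 with E. coli vesicles, and NLRC4, of an inflammasome component, 27.6, 48.4 and 44.2. For ANKRD13C they were 24.6, 67.4 and 76.0 CPM. The rows closest to SLC9A3 were ADCK5 (0.95), CTSV (0.94), NFRKB (0.93), TECPR2 (0.93) and LOC102724814 (0.92), with PP7080 99th. NFRKB had means of 21.4, 51.5 and 30.9 CPM, and CTSV, of cathepsin V, 19.2, 39.5 and 34.8. The points share the offset of replicate 3 and the controls, so these correlations describe the 9 libraries only. The group means follow from picking rows by correlation with the members, so nothing is read from them. Those printed lay at 19.2 to 81.3 CPM, where 3 counts were worth 3.88 to 9.07 CPM.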

How the data were processed

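The authors deposited raw counts per gene row for 9 libraries, made from 50 nt single reads of TruSeq stranded mRNA libraries, per the labels' protocols. Per the submitters' processing notes the tools included TopHat2 2.0.12 with Bowtie2 2.2.3 and HTSeq 0.6.1, and the build hg19. Cufflinks 2.2.1 and SAMtools 0.1.19 are also listed. Annotation and strand setting: not given in the sources used here. If HTSeq dropped reads that fit several genes, reads in sequence shared by PP7080 and SLC9A3 could be missing.

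Counts were tested with edgeR 4.0.16 in R 4.3.3: filterByExpr (minimum count 10, minimum total 15), TMM, robust quasi-likelihood F-test, all 9 libraries by group, and Benjamini-Hochberg over 3679 rows at 0.05. SEs are the log2 fold change over the square root of F. The ratio test used a pseudocount of 0.5 and an exact permutation of libraries. Rows were matched to GENCODE 29 by name or RefSeq synonym (22376 of 26008 rows), and distances are in exon bases. Named rows were the members, the 4 rows of highest mean count in each list, rows opposite members, and the 5 most correlated rows (log2 CPM, prior count 2). One row of a list is not reported here. The members and lists were chosen with earlier results of these data known. The edgeR fit by group was tested on simulated counts, with known changes in the V. cholerae libraries and no shift of replicate 3.

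Residuals from group means of same-numbered libraries correlated at 0.115 to 0.677, all above 0.1, so a replicate block was fitted. Replicates 1 and 2 correlated as closely across numbers (0.133 to 0.350) as within, so the block mainly sets replicate 3 apart. V. cholerae replicates 1 and 2 differed slightly beyond sampling noise (chi-square 1.05 per degree of freedom, p = 0.00561) and were kept as 2 libraries. Alternatives were other scalings, filters, pseudocounts and tools (limma 3.58.1 voom, DESeq2 1.42.0), the block, replicates 1 and 2 only and leaving out each library. Summing V. cholerae replicates 1 and 2 was added after the data were seen.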

Additional observations from a re-analysis of the deposited data

How the results depend on the processing

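The rows were chosen on the V. cholerae comparison, so calls in it are given for their dependence on the settings only and support nothing. With the replicate block, log2 fold changes that became called were PP7080 (1.32) and SLC9A3 (0.80) with V. cholerae and PP7080 (1.19) with E. coli vesicles. DESeq2 called PP7080 (1.31 and 1.21), and no filter PP7080 with V. cholerae vesicles (1.34). Replicates 1 and 2 only called PP7080 (1.21 and 1.32), SLC9A3 (0.73 and 0.36) and SLC9A3 between vesicles (0.38), and turned PP7080 between vesicles to -0.11. Numbers of rows called were, with V. cholerae, E. coli and between vesicles in turn, 2, 7 and 0 as reported, 13, 84 and 2 with the block, 5, 40 and 31 with no filter, 61, 793 and 766 in replicates 1 and 2 only, and 4, 35 and 5 by DESeq2. They were 0 by voom and 1 with V. cholerae replicates 1 and 2 summed (V. cholerae comparison), and between vesicles 3 with the CPM filter and 1 with only the 2 groups.

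Leaving out a library, without and with the block, PP7080 ranged from 1.05 to 1.48 and 1.14 to 1.43 with V. cholerae, 1.03 to 1.34 and 1.08 to 1.39 with E. coli, and -0.11 to 0.29 and -0.06 to 0.24 between vesicles. SLC9A3 ranged from 0.54 to 1.01 and 0.73 to 0.85, 0.15 to 0.65 and 0.37 to 0.50, and 0.088 to 0.67 and 0.31 to 0.42. Rows called ranged from 0 to 5 and 4 to 77, 3 to 236 and 3 to 817, and 0 to 204 and 0 to 747, highest without E. coli replicate 3 except for the 5 (without V. cholerae replicate 3). The blocked V. cholerae call ended for PP7080 without control replicate 1 and for SLC9A3 without V. cholerae replicate 1. The cause was not tested.

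The log2 ratio difference kept its sign under all alternatives run, from 0.42 to 0.62 with V. cholerae and 0.61 to 1.00 with E. coli on leaving out a library, and with the replicate block the exact sign-flip p was 0.25 with E. coli vesicles, the smallest 3 pairs allow. The EXOC3 row was too shallow for a test.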
